A study of Mus musculus with 6 samples.

Results

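The secreted ligands, receptors and extracellular modulators of Wnt signalling were followed in sciatic nerve, distal part, of mice of both sexes. The 49 genes were chosen by symbol from the protein-coding transcripts of the deposited tables. They comprise the 19 Wnt ligands, the 10 Frizzled receptors, the co-receptors Lrp5 and Lrp6, the 6 antagonists of the Sfrp, Frzb and Wif1 kind, 4 Dkk genes, 4 R-spondins, the 3 Lgr receptors of R-spondins, and Axin2. Together they are 49 of 54309 genes in the tables, with 88 of 140789 transcripts.

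There were 3 libraries from females and 3 from males, all of C57BL/6 mice aged 6 to 8 weeks, with 2 animals pooled for each library. Nerves were taken 24 h after surgery on the left sciatic nerve. The labels disagree on that surgery. A treatment field names axotomy, the cutting of the nerve, for all 6 libraries, whereas the written procedure describes a nerve that was exposed and left uncut. Female nerves were set against male nerves, with the surgery labelled alike in both, to look for molecular differences between the sexes. Nerves without surgery were not analysed here.

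Wnt proteins are secreted lipid-modified ligands that bind a Frizzled receptor together with Lrp5 or Lrp6. In the canonical branch this stops the Axin and Apc complex from marking beta-catenin for breakdown, and beta-catenin then works with TCF and LEF factors on target genes. Sfrp proteins, Frzb and Wif1 bind Wnt proteins outside the cell, Dkk1 and Dkk2 act on Lrp5 and Lrp6, and R-spondins raise the sensitivity of cells to Wnt through Lgr receptors. In peripheral nerve, beta-catenin signalling through Lrp6 is known to promote expression of myelin genes in Schwann cells.

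Promoter windows are shown for 3 members: Sfrp5, the most abundant member, Frzb, which had the lowest log2 fold change among members above 1 TPM, and Axin2, a direct target of beta-catenin. They run from 250 bases before to 50 bases after the annotated start and come from RefSeq on build GRCm38.p6, whose table held 35 windows for 32 of the 49 genes. Windows of Dkk3 and Sfrp4 were not used here.
Sfrp5, chr19:42202203-42202502, minus strand: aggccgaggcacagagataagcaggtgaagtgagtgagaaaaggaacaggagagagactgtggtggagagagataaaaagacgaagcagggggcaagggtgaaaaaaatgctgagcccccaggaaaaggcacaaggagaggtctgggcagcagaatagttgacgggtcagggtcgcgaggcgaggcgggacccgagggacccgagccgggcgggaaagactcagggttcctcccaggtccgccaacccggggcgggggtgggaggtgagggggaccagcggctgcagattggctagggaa
Frzb, chr2:80447347-80447646, minus strand: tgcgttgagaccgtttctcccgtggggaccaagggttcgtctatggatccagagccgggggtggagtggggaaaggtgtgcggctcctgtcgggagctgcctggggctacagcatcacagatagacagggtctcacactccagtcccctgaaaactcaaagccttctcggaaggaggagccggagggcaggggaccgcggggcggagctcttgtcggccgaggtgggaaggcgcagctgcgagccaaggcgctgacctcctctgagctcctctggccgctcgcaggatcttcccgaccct
Axin2, chr11:108920099-108920398, plus strand: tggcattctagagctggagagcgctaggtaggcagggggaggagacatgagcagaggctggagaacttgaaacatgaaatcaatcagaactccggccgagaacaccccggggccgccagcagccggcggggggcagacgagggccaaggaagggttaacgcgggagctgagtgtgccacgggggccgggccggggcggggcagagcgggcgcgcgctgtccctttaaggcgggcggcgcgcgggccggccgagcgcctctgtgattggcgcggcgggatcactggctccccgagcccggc
The windows were searched on both strands for CTTTGAT and CTTTGAA, forms of the motif bound by TCF and LEF factors, and matches would be in capitals. None of these 3 windows holds a match to those letters. A match was found in 3 of the 35 member windows (8.57%), those of Dkk1, Wnt11 and Wnt5b, against 8.65% of all 32851 windows in the table. The windows are rich in G and C, at 61.3% for Sfrp5, 64.7% for Frzb and 70.0% for Axin2.

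Libraries held 55272138 to 77610593 estimated reads. A count of 3 reads, the limit that a count of 0 allows, corresponded to at most 0.0543 CPM, reads scaled to the library total, and such limits cover counting error only. Levels below are TPM, a share of all transcripts that is scaled for length and can be compared between genes. Xist, expressed from the inactive X chromosome, was at 119.9 to 147 TPM in females and at most 0.380 TPM in males, as the labels of sex have it. Markers of Schwann cells, fibroblasts, perineurial, endothelial and mural cells, macrophages and neutrophils were all detected, and no marker on any of the 11 cell type lists was at 0 in all libraries. Some libraries stood apart. Skeletal muscle markers summed to 1140.4 TPM in female 2 and 563 TPM in male 1, against 7.82 to 19.8 TPM in the others. Keratinocyte and hair follicle markers summed to 26.3 TPM in female 1, against 4.42 to 6.23 TPM elsewhere.

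The nerves expressed a wide set of these genes, and secreted antagonists dominated it. Of the 49, 29 had a mean of at least 1 TPM over the 6 libraries, 16 of at least 10 TPM and 2 of at least 100 TPM. The last were Sfrp5 and Sfrp4, whose summed TPM made up 64.8% to 70.1% of the TPM of all 49 genes by library. The antagonists of the Sfrp, Frzb and Wif1 kind summed to 744 ± 75.7 TPM in females and 1027 ± 64.4 TPM in males (SD, n = 3 each). The 19 ligands summed to 50.5 ± 5.56 TPM in females and 57.8 ± 0.543 TPM in males. At the low end, 7 genes stayed under 3 reads in every library: Wnt3, Wnt3a, Wnt7a, Wnt8a, Wnt8b, Rspo4 and Dkk4.

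**Figure D1:**
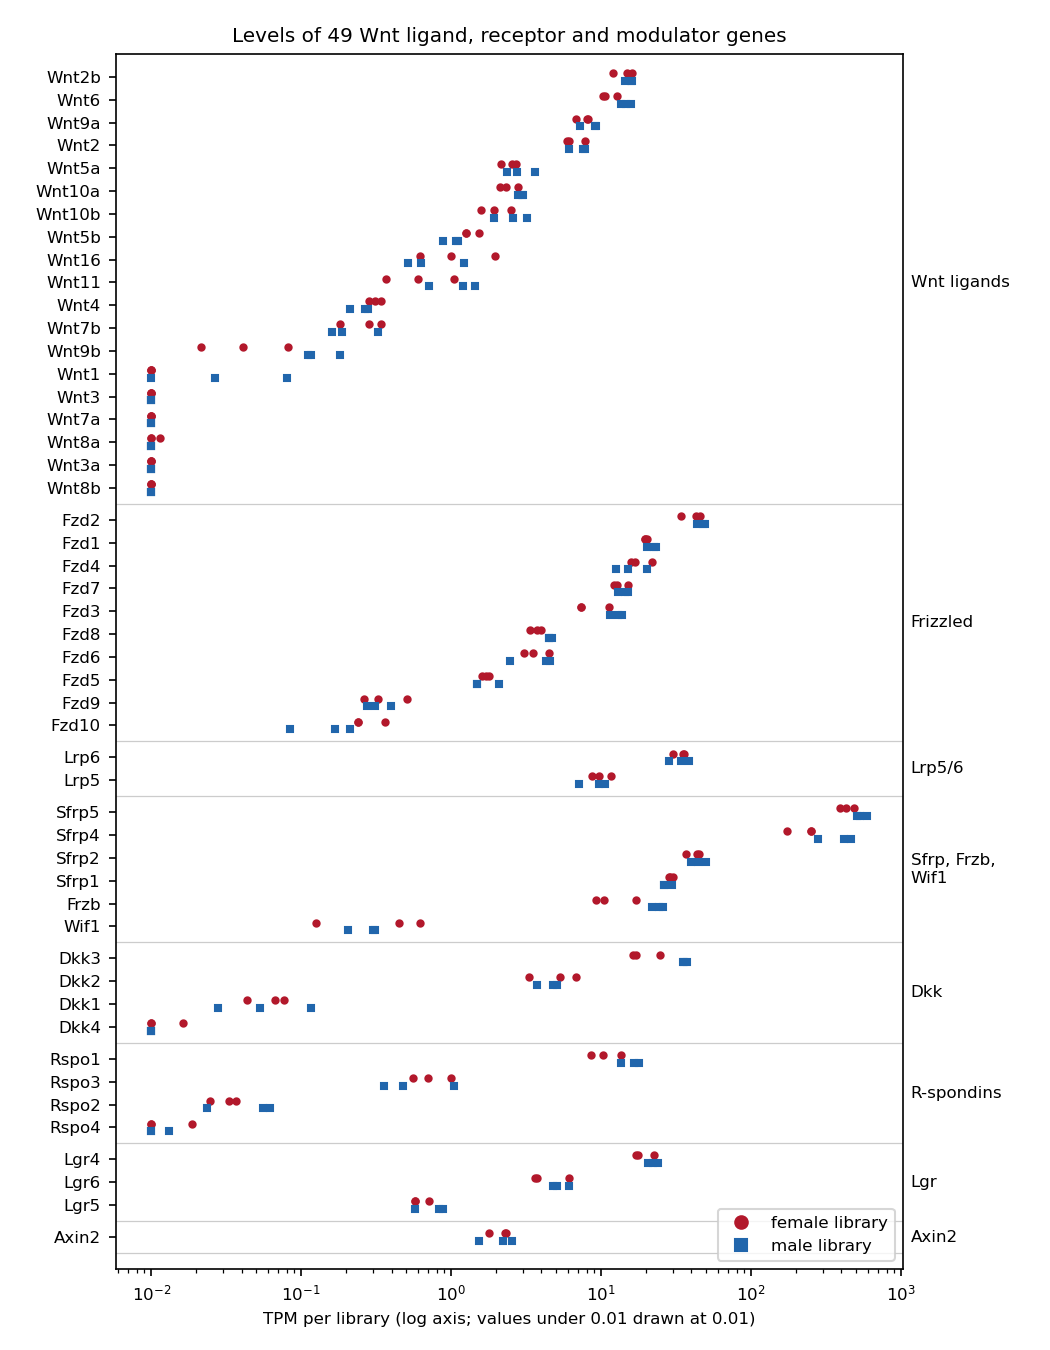
TPM of each of the 49 genes in each library on a log axis, by role, with females as red circles and males as blue squares and values under 0.01 TPM drawn at 0.01. Sfrp5 and Sfrp4 lie above 100 TPM in every library, and 20 genes have a mean below 1 TPM.

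No gene of the set passed the test between the sexes. Of the 49, 39 were kept by the low-count filter, and 0 of these were called in either direction by edgeR's quasi-likelihood test at an adjusted p under 0.05, where 0.0211% of all 18916 genes tested were called higher in females and 0.0952% higher in males. At an unadjusted p under 0.05 there were 9 lower and 2 higher in females, or 23.1% and 5.13% of those kept, against 8.26% and 5.45% of all genes. The female libraries lay wholly below the male ones in TPM for 11 and wholly above for 3, or 28.2% and 7.69%, against 11.4% and 8.16% of all genes. The median log2 fold change, female minus male, was -0.12 over the 39 and 0.016 over all genes tested. DESeq2 called 0 of them higher in females and 3 higher in males (Dkk3, Frzb and Sfrp4), where it called 1.09% and 3.04% of all genes. With edgeR and female 3 left out, none were called higher in females and Dkk3 and Frzb higher in males, where 0.052% and 0.717% of all genes were. Limma called none of the 39, on voom values or on log2(TPM + 1). A gene that did not pass may still differ between the sexes. In these bulk samples fewer cells of a type and less RNA per cell cannot be told apart.

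**Figure D2:**
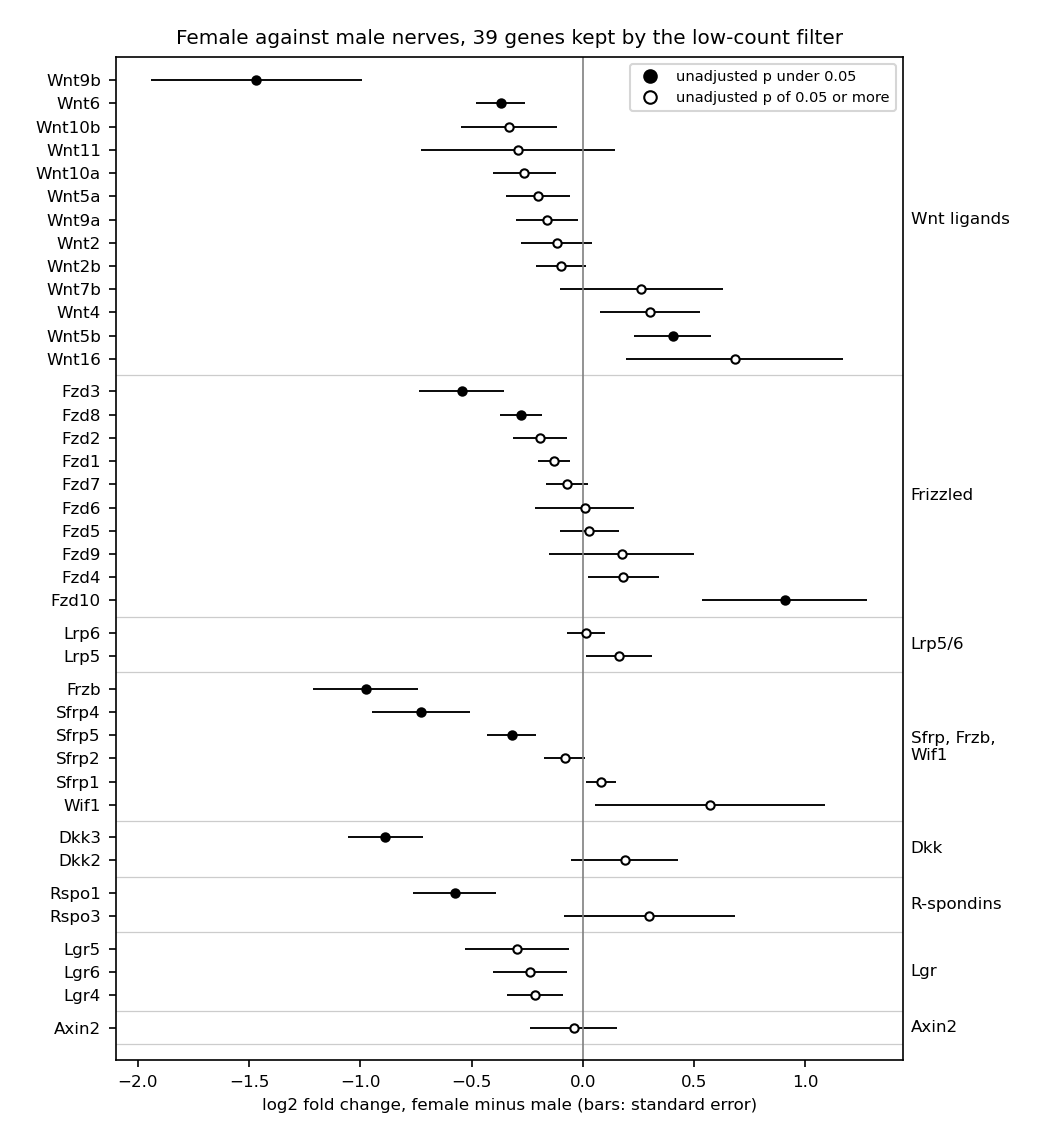
Log2 fold change, female minus male, with its standard error, for the 39 genes kept by the filter, by role; filled points have an unadjusted p under 0.05. The lowest value is that of Wnt9b at -1.47 and the highest that of Fzd10 at 0.91, both genes of low level. Below 0 lie 24 of the 39, or 61.5%, against 46.6% of all genes tested.

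Among the ligands, Wnt2b, Wnt6, Wnt9a and Wnt2 were the most abundant. Wnt2b, which can act through beta-catenin, was at 12.0, 14.8 and 16.1 TPM in females 1 to 3, against 15.8, 14.5 and 16.1 TPM in males 1 to 3, so that the sexes overlapped (log2 fold change -0.10, SE 0.11). Wnt6 was at 10.6, 10.2 and 12.8 TPM in females, against 15.7, 13.6 and 14.6 TPM in males. Each female library lay below each male one, by a small step. Its log2 fold change was -0.37 (SE 0.11), with an edgeR adjusted p of 0.221. Wnt9a averaged 7.64 ± 0.725 TPM in females and 8.57 ± 1.12 TPM in males, and Wnt2 6.60 ± 1.06 TPM in females and 7.16 ± 0.890 TPM in males (SD, n = 3 each).

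Wnt5a and Wnt11, ligands best known for signalling that does not use beta-catenin, were low. Wnt5a averaged 2.47 ± 0.284 TPM in females and 2.92 ± 0.653 TPM in males, with its transcript Wnt5a-202 making 63.6% to 74.1% of it in each library. Wnt11 averaged 0.672 ± 0.344 TPM in females and 1.12 ± 0.374 TPM in males, with overlap and a log2 fold change of -0.29 (SE 0.43). Its transcript Wnt11-205 took 0% to 97.3% of that TPM by library. Of all reads assigned to Wnt11, 63.3% went to transcripts that are not protein-coding and are left out of these sums. The related ligand gene Wnt5b was at 1.52, 1.25 and 1.26 TPM in females, against 0.885, 1.08 and 1.12 TPM in males, so the lowest female library stood above the highest male one. It had a log2 fold change of 0.40 (SE 0.17) and an edgeR adjusted p of 0.364. Wnt10a was at 2.33, 2.12 and 2.78 TPM in females, against 2.97, 2.81 and 3.03 TPM in males, again without overlap (log2 fold change -0.26, SE 0.14, edgeR adjusted p 0.470).

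The remaining ligands that were kept were Wnt10b, Wnt16, Wnt4, Wnt7b and Wnt9b, with means over all libraries of 0.0919 to 2.29 TPM. Wnt10b was at 1.58, 1.94 and 2.49 TPM in females, against 1.92, 2.58 and 3.20 TPM in males, with Wnt10b-206 making 50.1% to 66.4% of it. Wnt16 was at 0.995, 0.615 and 1.97 TPM in females, against 0.514, 0.632 and 1.21 TPM in males, so that the spread within a sex was as wide as the step between them. Wnt4, at 0.342, 0.309 and 0.283 TPM in females and 0.278, 0.265 and 0.210 TPM in males, was low in both sexes, and its groups overlapped when counted in CPM. Wnt9b held 5, 18 and 10 reads in females 1 to 3, against 28, 22 and 30 reads in males 1 to 3. Its log2 fold change of -1.47 (SE 0.47, edgeR adjusted p 0.245) thus rests on few reads, and this gene lies near the low-count filter. Wnt1, which was not kept, had 7 reads in male 2 and at most 2 reads in any other library. By RefSeq's gene order on GRCm38.p6, 4 pairs of ligand genes are direct neighbours, and their members differed in level. Wnt6 stood at a mean of 12.9 TPM beside Wnt10a at 2.67 TPM on chromosome 1, and Wnt9a at 8.11 TPM beside Wnt3a at 0.00117 TPM on chromosome 11. Wnt10b at 2.29 TPM neighbours Wnt1 at 0.0225 TPM on chromosome 15, and Wnt9b at 0.0919 TPM neighbours Wnt3 at 0.00218 TPM on chromosome 11.

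All 10 Frizzled genes were detected with at least 3 reads in every library. Fzd2 took 32.5% to 40.5% and Fzd1 16.6% to 19.4% of the summed Frizzled TPM by library. Fzd2 was at 42.9, 33.9 and 45.3 TPM in females, against 47.6, 49.1 and 43.7 TPM in males, and Fzd4, also the receptor of Norrin, averaged 18.1 ± 3.24 TPM in females and 16.0 ± 3.95 TPM in males (SD, n = 3 each). In both genes the sexes overlapped. Fzd1 was at 20.1, 19.7 and 19.5 TPM in females, against 23.0, 20.3 and 22.5 TPM in males, close to one another, and overlapping when counted in CPM (log2 fold change -0.13, SE 0.072, edgeR adjusted p 0.472).

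Fzd3, a receptor best known for planar cell polarity and axon guidance, was at 7.34, 7.38 and 11.3 TPM in females, against 13.8, 11.5 and 13.0 TPM in males. Female 3 lay just under male 2, and the other two females well below. The log2 fold change was -0.55 (SE 0.19) with an edgeR adjusted p of 0.290. Fzd8 was at 3.73, 3.38 and 3.99 TPM in females, against 4.48, 4.50 and 4.70 TPM in males, without overlap (log2 fold change -0.28, SE 0.094, edgeR adjusted p 0.262). Fzd10 went the other way, at 0.360, 0.239 and 0.238 TPM in females, against 0.0842, 0.167 and 0.210 TPM in males. It held only 13 to 53 reads by library (log2 fold change 0.91, SE 0.37, edgeR adjusted p 0.342). Fzd7 was at 12.7, 12.2 and 15.1 TPM in females, against 12.9, 14.5 and 15.1 TPM in males. Fzd6, another receptor known from planar cell polarity, was at 4.47, 3.53 and 3.08 TPM in females, against 2.46, 4.28 and 4.54 TPM in males, with male 1 lowest of all 6 libraries. Together with Fzd5 and Fzd9 these overlapping genes had log2 fold changes of -0.071 to 0.17.

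Lrp6, the co-receptor, was at 29.9, 35.9 and 35.1 TPM in females, against 28.5, 34.0 and 38.4 TPM in males. The groups overlapped throughout, with a log2 fold change of 0.015 (SE 0.087). Its relative Lrp5 was at 9.65, 11.6 and 8.67 TPM in females, against 7.10, 9.68 and 10.6 TPM in males, with a log2 fold change of 0.16 (SE 0.15). Lrp6 made up 75.6% to 80.2% of the TPM of both co-receptors in each library.

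Sfrp5 and Sfrp4 held the highest levels of the 49 genes. In 3 of the 6 antagonists of this kind all females lay below all males and in none above, where 11.4% and 8.16% of all genes did. Sfrp5 was at 430.04, 393 and 486 TPM in females, against 594, 511 and 531 TPM in males, and ranked 250 by mean TPM among the 18916 genes tested. The groups did not overlap, although female 3 and male 2 lay close (log2 fold change -0.32, SE 0.11, edgeR adjusted p 0.267). Sfrp4 was at 173, 249 and 251 TPM in females, against 279, 416 and 461 TPM in males, with male 1 nearer to the females than to the other males. It had a log2 fold change of -0.73 (SE 0.22) and an edgeR adjusted p of 0.235, against 0.0167 by DESeq2. The protein-coding transcript Sfrp4-204 took 16.7% of the Sfrp4 TPM in male 1 and 0.406% to 1.44% in the other libraries.

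Frzb, a Wnt-binding protein first described in cartilage, was at 10.5, 9.20 and 17.0 TPM in females, against 25.7, 24.3 and 21.9 TPM in males. Female 3 stood between the other two females and the males, and no library overlapped. The log2 fold change was -0.98 (SE 0.24), with an adjusted p of 0.186 by edgeR and 0.00110 by DESeq2. Without female 3, the female nearest to the males, the log2 fold change was -1.28 and the edgeR adjusted p 0.0206. Without any other single library it was -0.81 to -1.07, with edgeR adjusted p of 0.309 to 0.454. Sfrp2 and Sfrp1, in contrast, had overlapping groups: Sfrp2 averaged 41.9 ± 4.49 TPM in females and 44.7 ± 4.98 TPM in males, and Sfrp1 29.2 ± 0.990 TPM in females and 27.4 ± 2.07 TPM in males (SD, n = 3 each). Wif1 was at 0.395 ± 0.249 TPM in females and 0.272 ± 0.0577 TPM in males, and 73.8% of its reads belong to transcripts that are not protein-coding. With those included its log2 fold change was 0.82 (edgeR adjusted p 0.239), against 0.57 (SE 0.52, edgeR adjusted p 0.671) without them. The value without them was 0.11 without female 3 and 0.98 without female 2. Within this group of antagonists, Sfrp4 made up 25.5%, 34.3% and 30.3% of the summed TPM in females, against 28.9%, 40.7% and 42.2% in males. Sfrp5 made up 63.2%, 54.2% and 58.7% in females, against 61.6%, 50.0% and 48.5% in males. Male 1 lay within the female range for both shares.

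Dkk3 is a divergent member of the Dkk family whose effect on Wnt signalling is less settled than that of its relatives. It was at 17.2, 16.2 and 24.8 TPM in females, against 37.6, 34.9 and 35.6 TPM in males, the smallest unadjusted p of the 39 genes (0.00109). Every female library was below every male one, and female 3 was the nearest to the males. The log2 fold change was -0.89 (SE 0.17), and the adjusted p was 0.135 by edgeR and 7.84e-05 by DESeq2. Leaving out that library gave -1.11 and an edgeR adjusted p of 0.0106. Leaving out any other single library gave -0.77 to -0.93, with edgeR adjusted p of 0.261 to 0.3902. Dkk2 was at 3.28, 6.81 and 5.33 TPM in females, against 3.73, 4.78 and 5.08 TPM in males, with overlap and a log2 fold change of 0.19 (SE 0.24). Dkk1 held 2 to 7.02 reads by library and was not kept by the filter.

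**Figure D3:**
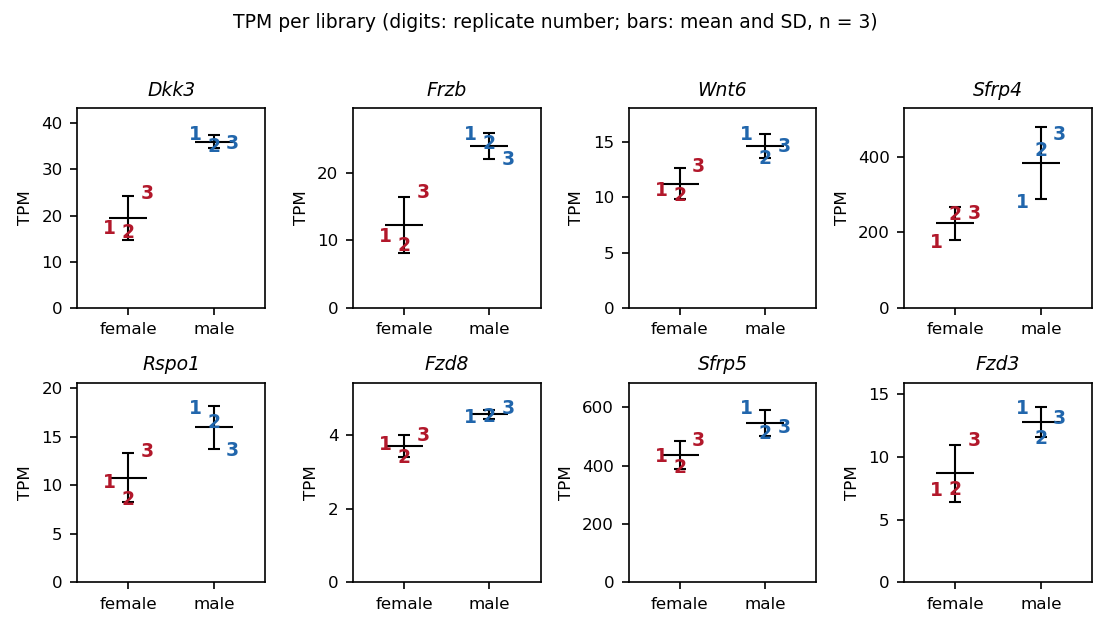
TPM in each library (digits give the replicate number, red for female on the left and blue for male on the right) with the mean and SD of 3 libraries, for the 8 genes of smallest unadjusted p with a mean of at least 1 TPM. In each panel the 3 females lie below the 3 males, and female 3 is the highest female, in Sfrp4 by a narrow step at 251 TPM, against 249 TPM in female 2. Choosing genes by p in these same libraries favours such a separation, which 11.4% of all genes show. In Rspo1 the groups overlapped when counted in CPM.

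Rspo1 supplied 89.2% to 97.9% of the R-spondin TPM in each library. It was at 10.3, 8.51 and 13.5 TPM in females, against 17.9, 16.5 and 13.5 TPM in males, so that female 3 and male 3 were level to 3 digits, and the groups overlapped when counted in CPM. The log2 fold change was -0.58 (SE 0.19, edgeR adjusted p 0.251). Rspo3 was low, at 0.703, 0.995 and 0.557 TPM in females and 0.356, 0.477 and 1.04 TPM in males. The spread within each sex was wider than the step between the sexes (log2 fold change 0.30, SE 0.39). Rspo2 held 3 to 6 reads by library.

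Of the R-spondin receptors, Lgr4 was the main one, at 17.5, 17.1 and 22.4 TPM in females, against 24.0, 20.7 and 22.05 TPM in males. Lgr6 averaged 4.51 ± 1.41 TPM in females and 5.30 ± 0.703 TPM in males, and Lgr5, a stem cell marker of intestine and hair follicle, 0.617 ± 0.0802 TPM in females and 0.762 ± 0.167 TPM in males (SD, n = 3 each). All 3 had overlapping groups and log2 fold changes of -0.22 to -0.30.

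Axin2, a scaffold of the beta-catenin destruction complex that is itself induced by beta-catenin, was at 1.79, 2.30 and 2.32 TPM in females, against 1.53, 2.21 and 2.56 TPM in males. Every female library lay within the male range (log2 fold change -0.041, SE 0.19, edgeR adjusted p 0.949). Axin2-201 made up 67.3% to 75.9% of its TPM. The shorter Axin2-204, of 826 nt, made up 16.7% to 30.8%, on only 9.47 to 22.2 reads by library. Axin2-201 held 286 to 392 reads.

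The rest of the pathway was read from 6 lists with 78 genes, of which 72 were kept. By edgeR 0 were called in either direction. At an unadjusted p under 0.05, 15 were lower and 1 was higher in females. These were 20.8% and 1.39% of those kept, against 8.26% and 5.45% of all genes. The median log2 fold change was -0.051. DESeq2 called 0 higher in females and 5 higher in males: the targets Ccn4 and Nkd1, the glypican Gpc3, Apc2 and Pygo1. The background shares for these tests are those given above for the 49 genes.

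Among 8 kept genes of the list of widely used targets, 3 were lower at an unadjusted p under 0.05. That was 37.5%, against 8.26% of all genes. Ccn4, a matricellular protein gene first described as induced by Wnt1, was at 9.72, 9.20 and 9.98 TPM in females, against 12.7, 13.1 and 14.5 TPM in males (log2 fold change -0.47, SE 0.071, edgeR adjusted p 0.0930). Nkd1, a feedback inhibitor that binds Dishevelled, was at 5.80, 5.51 and 6.57 TPM in females, against 11.1, 9.84 and 8.57 TPM in males. It had a log2 fold change of -0.71 (SE 0.14) and an edgeR adjusted p of 0.135. In both genes all females lay below all males, as in 11.4% of all genes. Of the 8 kept targets 5 had log2 fold changes below 0 and 3 above. For Tnfrsf19 the value was 0.25 (SE 0.18), and all females lay above all males, as in 8.16% of all genes. Ccn4, Nkd1 and Gpc3 passed by edgeR without the low-count filter, at adjusted p of 0.0271, 0.0229 and 0.0271, where 0.104% of 31688 genes were called higher in females and 0.385% higher in males.

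Of the 18 kept co-receptors and surface modulators, 4 were lower and 1 was higher in females at an unadjusted p under 0.05. These were 22.2% and 5.56% of that list, against 8.26% and 5.45% of all genes. Gpc3, a cell surface glypican that binds Wnt proteins, was at 195, 216 and 271 TPM in females, against 331, 338 and 348 TPM in males (log2 fold change -0.59, SE 0.12, edgeR adjusted p 0.139). Female 3 was again the female library nearest to the males. Ndp, which encodes Norrin, had a log2 fold change of -0.42 (SE 0.12), and Apcdd1, an inhibitor at the membrane, one of 0.44 (SE 0.13) that stands outside the naming rule and was picked after its value was seen.

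The 16 genes of the destruction complex and Dishevelled, all kept, had a median of -0.0078. Of them 1, or 6.25%, was lower at an unadjusted p under 0.05, against 8.26% of all genes. This was Apc2 (log2 fold change -0.91, SE 0.23, edgeR adjusted p 0.173). Apc2 was low, at 0.240, 0.350 and 0.437 TPM in females, against 0.659, 0.506 and 0.438 TPM in males. Axin1 had a log2 fold change of 0.098 (SE 0.065). The TCF and LEF list had a median of -0.17 over 14 genes. At that threshold 3 of them, or 21.4%, were lower, against 8.26% of all genes. Pygo1, a beta-catenin cofactor, at -0.46 (SE 0.12) and the corepressor Tle3 at -0.25 (SE 0.076) were among the 3. The 14 planar cell polarity genes had a median of -0.0021, with 7 below 0 and 7 above. At that threshold 4 of them, or 28.6%, were lower, against 8.26% of all genes. Celsr1 at -0.33 (SE 0.11) and Prickle2 at -0.35 (SE 0.12) were among the 4. For secretion, Wls, the carrier of Wnt proteins to the surface, averaged 34.5 ± 4.29 TPM in females and 31.3 ± 7.65 TPM in males, and Porcn, which adds the lipid, 4.25 ± 0.0971 TPM in females and 4.45 ± 0.722 TPM in males (SD, n = 3 each). Notum, which removes the lipid, was not kept by the filter.

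Summed markers of 4 cell type lists were also lower in every female library than in every male one. Markers of myelinating Schwann cells summed to between 10659 and 16592 TPM in females and between 22067 and 27935 TPM in males, with 7 of 8 markers lower in every female library than in every male one, as were 11.4% of all genes. The fibroblast list summed to between 3004 and 3855 TPM in females and between 4243 and 5489 TPM in males, with 5 of 9 such markers. General Schwann cell markers summed to between 528 and 723 TPM in females and between 776 and 954 TPM in males, with 3 of 6. Perineurial markers summed to between 426 and 502.5 TPM in females and between 528 and 573 TPM in males, with 3 of 7. No marker on these 4 lists passed by edgeR or was at 0 in all libraries. The sums of the lists of endothelial cells, mural cells, macrophages, neutrophils and adipocytes overlapped between the sexes. Of the 6 neutrophil markers, Csf3r and Mmp8 were higher in every female library than in every male one, as were 8.16% of all genes. All 6 macrophage, all 6 adipocyte and all 8 skeletal muscle markers had log2 fold changes above 0, as had 10104 of the 18916 genes tested. None of these markers showed such a separation, and the summed muscle markers were high only in female 2 and male 1. The part of cell composition in the values of Dkk3, Frzb, Sfrp4 and the others was not tested.

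Without female 2 and male 1, the libraries with muscle markers, edgeR called 0 of the Wnt genes, where 0.0317% of all genes were called higher in females and 0.0793% higher in males. The log2 fold change was then -0.69 for Dkk3 and -0.71 for Frzb, both smaller, and -0.99 for Sfrp4, which was larger. Rspo1 had -0.34, Sfrp5 -0.18, Fzd3 -0.28 and Wnt6 -0.25, while Axin2 had -0.29. Lgr6 had -0.49 (SE 0.096, edgeR adjusted p 0.198), against -0.24 with all libraries. The receptors Lrp5 and Fzd4 changed sign, to -0.095 and -0.067.

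**Figure D4:**
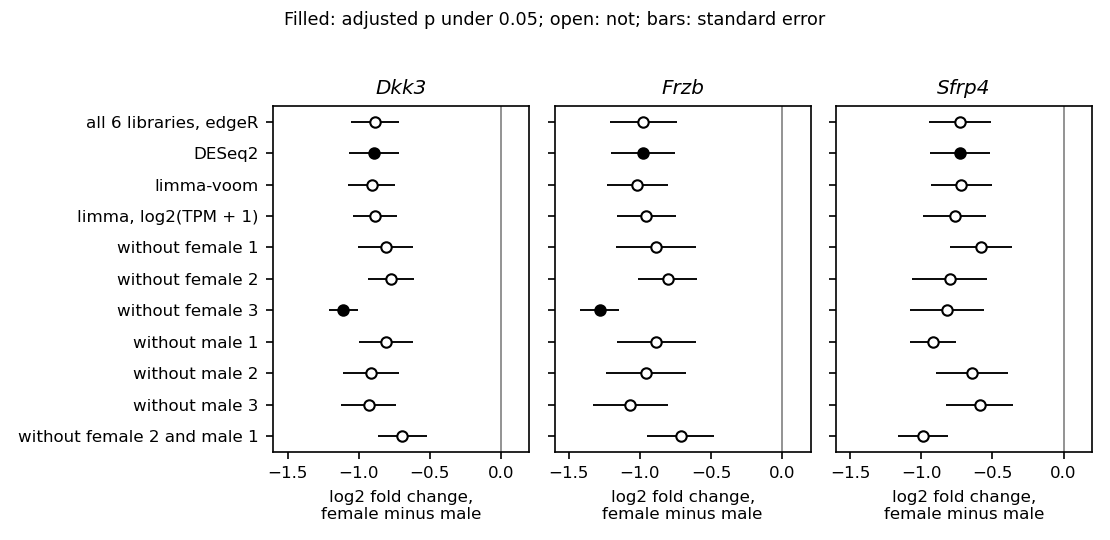
Log2 fold change, female minus male, of Dkk3, Frzb and Sfrp4 under 11 fits, with standard errors; filled points have an adjusted p under 0.05. All values are below 0, and only DESeq2 (for the 3 genes) and edgeR without female 3 (for Dkk3 and Frzb) gave filled points.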

How the data were processed

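RNA was measured in 6 libraries of distal sciatic nerve, grouped by the sex in the labels. Per the labels' protocols, stranded poly-A libraries were read as paired ends of 100 nt. Tools listed in the submitters' processing notes are Salmon 1.5.2, Trimmomatic 0.39 and MultiQC 1.9. The tables deposited by the authors give an estimated count per transcript, not normalized, per the file headers. They also give TPM per transcript as Salmon computed it, per the file headers. Neither the genome build nor the annotation release is given in the sources used here, and coordinates are printed only for RefSeq promoter windows.

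Estimated counts and TPM were summed over the protein-coding transcripts of each gene, or over all its transcripts where it has none, and counts were rounded to whole numbers. Genes were filtered with filterByExpr (edgeR 4.0.16, R 4.3.3), scaled by TMM and tested with edgeR's robust quasi-likelihood fit on sex alone, with Benjamini-Hochberg adjustment over 18916 genes and a threshold of 0.05. The standard error (SE) is the size of the log2 fold change divided by the square root of the test's F value. This test was checked on simulated counts, drawn for each gene independently, without the muscle and keratinocyte signal of single libraries. That check therefore does not cover such differences between libraries. The alternatives were other scaling, filters, transcript sums, DESeq2 1.42.0, limma 3.58.1 on voom values or log2(TPM + 1), no robust estimation, the replicate number as a block, and libraries left out.

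The members, lists and tests were chosen with earlier results of these data known. Genes named are those with an unadjusted p under 0.05, the 3 of highest mean TPM in each role, those without overlap between the sexes at a mean of at least 1 TPM, and, in each of the 6 pathway lists, those past the threshold and the 2 of smallest p. Other genes are given as values only and were picked after those were seen. All pairs of libraries differed beyond sampling noise (chi-square of at least 26.5 per degree of freedom). Each library pooled 2 animals, per the labels' protocols.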

Additional observations from a re-analysis of the deposited data

How the results depend on the processing

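Over 16 alternatives, 29 of the 38 named genes that were tested kept the sign of their log2 fold change. Genes called over the whole table moved most, from 4 higher in females and 18 higher in males. They were 33 and 122 with no filter, 206 and 575 by DESeq2, 1 and 10 by limma on log2(TPM + 1), 0 and 3 with the replicate block, 2 higher in females at a mean CPM of at least 1, and 0 to 10 and 4 to 138 with 1 library left out. The highest counts with 1 library left out came without female 3. Wnt genes called higher in males were 3 by DESeq2 and 0 to 2 with 1 library left out, against 0, and 0 were called higher in females under any alternative. Other pathway genes called higher in males were 3 with no filter, 5 by DESeq2 and 0 to 1 with 1 library left out, against 0. The median over the Wnt genes kept was -0.12, and was -0.067 with no filter, which tests all 49, and -0.15 to -0.071 with 1 library left out.

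Signs turned for 9 genes, none of them called. Without female 2 and male 1 the log2 fold change was -0.14 for Dkk2, -0.067 for Fzd4, -0.095 for Lrp5, -0.065 for Lrp6, -0.18 for Rspo3 and -0.057 for Wls. Axin2 had 0.026 by limma on log2(TPM + 1). With 1 library left out the range was -0.21 to 0.10 for Axin2, -0.059 to 0.42 for Dkk2, -0.036 to 0.072 for Lrp6, -0.19 to 0.0086 for Wnt2b and -0.15 to 0.031 for Porcn. The cause was not tested in any of these cases.

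Libraries with the same replicate number did not deviate together (correlations of -0.27 to 0.049), and no library correlated best with its own number. The deviations were taken from the mean of only 3 libraries a sex, so these correlations cannot show whether equal numbers shared any handling. The fit with the replicate block pairs libraries by that number. The replicate block called 0 Wnt genes. At 3 libraries a sex, the SE of the kept Wnt genes at a mean of at least 1 TPM ran from 0.067 to 0.24 on the log2 scale.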
